A study of Mus musculus with 4 samples.

Results

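The genes described here encode the subunits of the 5 oxidative phosphorylation complexes that are made from nuclear DNA. They were chosen by a rule on symbols, with earlier results of these data known. It took names in Nduf followed by a, b, c, s or v and a number, and names in Uqcr and Atp5. It also took Cox4 to Cox8 followed by a letter, and Sdha to Sdhd. The rule took 84 of the 23481 genes in the count table, of which 37 belonged by name to complex I, 4 to complex II, 8 to complex III, 18 to complex IV and 17 to complex V. Their levels came from RNA sequencing of 4T1-T cells, a line derived from 4T1 mouse mammary carcinoma. In every library the cells carried a silenced Asns, the gene of the enzyme that makes asparagine, so there was no library of cells with Asns active. Cells grown in DMEM lacking asparagine gave 2 libraries, A and B, and cells grown in DMEM with asparagine added gave 2 libraries, also A and B. The question was whether the medium's asparagine altered the transcripts of these subunits in cells with Asns silenced.

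The complexes sit in the inner mitochondrial membrane. Complex I takes electrons from NADH and complex II takes them from succinate, both passing them to ubiquinone. Complex III hands them to cytochrome c, complex IV passes them on to oxygen, and the proton gradient built up on the way drives complex V, the ATP synthase. Except for complex II, each is assembled from subunits of both nuclear and mitochondrial origin. In proliferating cells the chain also regenerates the NAD+ that aspartate synthesis needs, and aspartate is the precursor of asparagine.

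Reads assigned to genes numbered 17977552 and 22581543 in libraries A and B without asparagine, against 23867011 and 30260582 in libraries A and B with asparagine. Library A without asparagine stood apart. HTSeq placed 56.6% of its reads outside annotated features, against 46.3% to 49.3% in the other libraries, and the ribosomal precursor Rn45s took 3.53% of its gene counts, against 0.884% to 1.66%. Counts differed more between the libraries without asparagine (chi-square per degree of freedom 44.7) than between those with it (5.27). Asns had 75.0 and 89.2 CPM (read counts scaled to library size) without asparagine, library A first here and throughout, against 102.7 and 101.3 CPM with it, a log2 difference of -0.31 ± 0.12 (SE, edgeR adjusted p = 0.235), which does not measure the silencing. The summed CPM of 5 epithelial markers was 935 and 916 without asparagine and 748 and 828 with it. Of these, Krt14 (log2 difference 2.73) and Epcam (0.68) were higher without asparagine by edgeR (adjusted p = 0.00434 and 0.0368), and Krt8 (-0.13), Krt18 (-0.02) and Cdh1 (0.50) were not called. Markers of leukocytes summed to 7.52 and 7.02 CPM without asparagine and to 6.22 and 6.21 CPM with it, mostly from Cd68, and Cd3e was at 0 in all libraries. Markers of endothelium and of fibroblasts stayed at or under 0.734 CPM in sum. In bulk RNA, fewer cells of a type and less RNA per cell cannot be told apart.

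The subunits spanned a wide range of levels. The 84 genes summed to 6057 and 7582 CPM without asparagine, against 7025 and 7427 CPM with asparagine. Of these sums, Atp5b alone gave 1243 and 2393 CPM without asparagine, and 2358 and 2407 CPM with it. Of the 84, 75 passed the filter on low counts (filterByExpr), with between 92 and 72160 reads in a library, and the other 9 had at most 6 reads in any library. Per kilobase of transcript, Atp5b, the catalytic beta subunit of ATP synthase (chromosome 10 from 128083273 to 128090391, GRCm38), was highest, averaging 949 CPM per kilobase without asparagine and 1244 CPM per kilobase with it. The highest of complex I was the accessory subunit Ndufb9, at 542 and 517 CPM per kilobase without and with asparagine. Complex V's c-ring subunit Atp5g3 had 297 and 281 CPM per kilobase without and with asparagine, and in complex IV Cox6a1 led with 266 without and 221 with asparagine. Uqcrh led complex III with 172 without and 167 with, and Sdhd led complex II with 93.4 without and 129 with. The median over the 75 tested members was 42.3 CPM per kilobase without asparagine and 35.9 with it. The lowest tested members were Atp5sl, at 2.86 without and 2.45 with asparagine, and Atp5s, at 3.62 without and 3.27 with it.

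**Figure D1:**
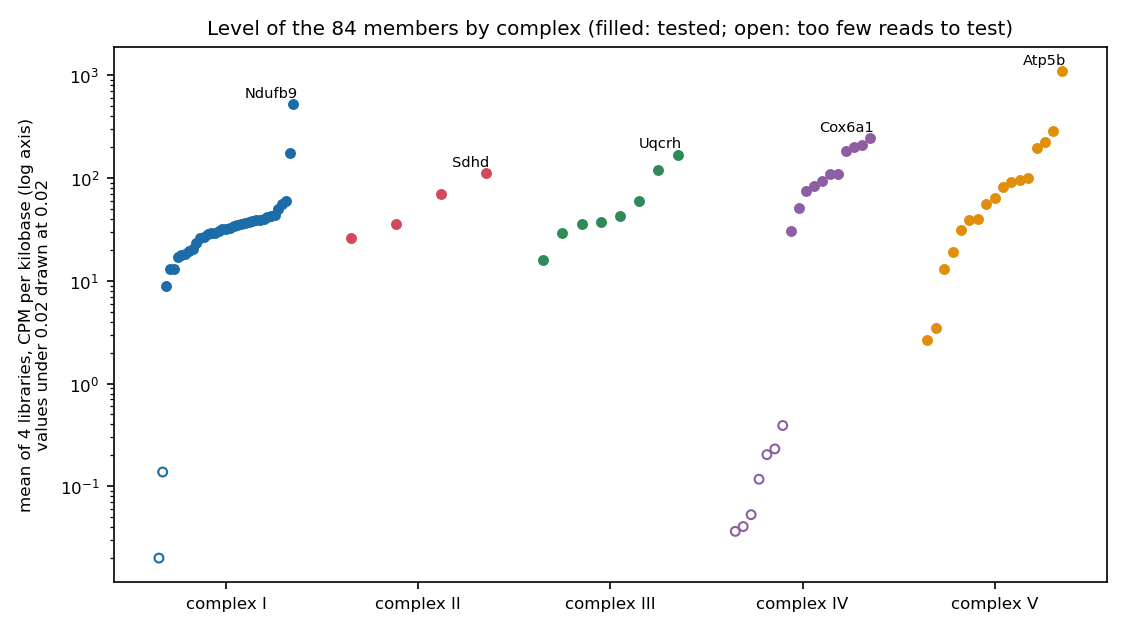
Mean level over the 4 libraries of each of the 84 genes, in CPM per kilobase of transcript on a log axis, by complex I to V. Filled points are the 75 tested genes and open points the 9 with too few reads, levels under 0.02 being drawn at 0.02; Atp5b stands above all others, and most open points are tissue-restricted isoforms of complex IV.

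Several complex IV subunits exist as a general form and a form restricted to muscle, testis or lung, and the cells transcribed the general ones. Cox4i1 had 178 and 175 CPM without asparagine, and 133.5 and 147 CPM with it, while its lung-enriched and oxygen-responsive counterpart Cox4i2 had at most 5 reads in any library. Cox6a2, Cox7a1 and Cox8b, the heart and skeletal muscle forms, had at most 4 reads in any library, and so did the testis forms Cox6b2, Cox7b2 and Cox8c. All 7 restricted isoforms together summed to 0.545 and 0.537 CPM without asparagine and 0.42 and 0.5 CPM with it. Their general counterparts Cox6a1, Cox6b1, Cox7a2 and Cox8a each had over 23 CPM in every library. The same held for Ndufa4, a subunit first assigned to complex I and now to complex IV, with 125 and 112 CPM without asparagine and 92.5 and 103 CPM with it, against at most 6 reads in a library for its hypoxia-induced paralog Ndufa4l2. Ndufs5, an accessory subunit of complex I, was listed at 0 in all 4 libraries, which allows up to 0.164 CPM (3 counts) in the shallowest. Another gene has a transcript at least 95% identical to that of Ndufs5 over at least 50% of its length, so its 0 may not be a true absence of the transcript.

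Promoters of respiratory chain genes are known for sites of nuclear respiratory factor 1 (NRF1), of the ETS-family factor GABP and of YY1. Windows from 250 bases upstream to 50 bases downstream of the start, from RefSeq on GRCm38.p6, were matched to 69 of the 84 genes and gave 75 windows. On both strands they were searched for GCGCA and GCGC with any 1 base between them (NRF1), CCGGAAG (ETS) and AAGATGGCG (YY1), where an ETS match can share its final AAG with a YY1 match. An NRF1 match occurred in 24% of the members' windows, against 9.83% of the windows of tested genes and 4.6% of all 32851 windows. The windows of tested genes were 11956, from 9409 of the 12843 tested. Members were also matched through older symbols, and other genes by exact symbol alone. For ETS the shares were 21.3% of the members' windows, 17.3% of those of tested genes and 8.86% of all, and for YY1 they were 12%, 2.94% and 1.4%. At least 1 of the motifs occurred in 49.3% of the members' windows, 27.1% of those of tested genes and 13.6% of all. By complex this share was 47.1% of 34 windows in I, 100% of 3 in II and 60% of 5 in III. In complex V it was 60% of 20, and in complex IV only 23.1% of 13, with NRF1 in 7.69%. YY1 had 0 matches in complexes II, III and IV. Most complex IV windows thus had no match, unlike those of Cox6a1 and Cox6b1 printed below. These shares are a description of letters in a window and not of binding. The windows below, with matches in capitals, are of genes described later, Sdhd and Atp5b for low values in library A without asparagine, and Atp5k, Cox6a1 and Cox6b1 for values above both libraries with asparagine in A and B. Sdhd (chr9:50603800-50604099, minus strand), the complex II membrane anchor with the lowest log2 difference of all members, has an NRF1 match starting 79 bases before its start and an ETS match 46 bases before it. Atp5b (chr10:128083057-128083356, plus strand), the lowest of complex V, has no match. Atp5k (chr5:108434350-108434649, minus strand), the highest of complex V, has an NRF1 match 50 bases before its start and an ETS match 12 bases after it. Cox6a1 (chr5:115348909-115349208, minus strand) has 2 NRF1 matches, 162 and 117 bases before its start, and an ETS match 16 bases before it. Cox6b1 (chr7:30626065-30626364, minus strand) has a single ETS match, 28 bases before its start. All are read 5′ to 3′ on the gene's strand.
Sdhd: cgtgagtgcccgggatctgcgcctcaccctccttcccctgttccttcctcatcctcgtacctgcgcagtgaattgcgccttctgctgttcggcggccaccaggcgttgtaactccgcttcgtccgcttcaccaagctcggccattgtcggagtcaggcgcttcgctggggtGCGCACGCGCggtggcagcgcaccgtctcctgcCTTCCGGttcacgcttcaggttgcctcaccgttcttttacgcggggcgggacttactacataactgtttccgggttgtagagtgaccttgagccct
Atp5b: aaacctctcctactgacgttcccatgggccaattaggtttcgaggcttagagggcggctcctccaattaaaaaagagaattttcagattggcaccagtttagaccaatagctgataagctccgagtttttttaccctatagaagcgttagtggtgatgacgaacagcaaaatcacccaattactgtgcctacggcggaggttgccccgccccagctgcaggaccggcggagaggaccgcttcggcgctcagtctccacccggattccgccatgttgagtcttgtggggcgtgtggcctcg
Atp5k: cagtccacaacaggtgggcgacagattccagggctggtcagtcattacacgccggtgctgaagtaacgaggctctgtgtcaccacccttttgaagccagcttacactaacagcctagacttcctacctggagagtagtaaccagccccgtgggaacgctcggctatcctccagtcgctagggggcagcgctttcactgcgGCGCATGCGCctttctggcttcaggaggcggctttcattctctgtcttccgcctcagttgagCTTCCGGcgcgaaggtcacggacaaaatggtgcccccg
Cox6a1: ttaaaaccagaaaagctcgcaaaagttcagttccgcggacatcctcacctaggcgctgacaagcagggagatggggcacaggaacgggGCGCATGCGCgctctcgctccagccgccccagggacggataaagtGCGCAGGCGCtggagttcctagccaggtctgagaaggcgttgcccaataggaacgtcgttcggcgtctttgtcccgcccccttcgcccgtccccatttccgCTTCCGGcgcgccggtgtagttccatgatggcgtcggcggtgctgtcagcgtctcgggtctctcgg
Cox6b1: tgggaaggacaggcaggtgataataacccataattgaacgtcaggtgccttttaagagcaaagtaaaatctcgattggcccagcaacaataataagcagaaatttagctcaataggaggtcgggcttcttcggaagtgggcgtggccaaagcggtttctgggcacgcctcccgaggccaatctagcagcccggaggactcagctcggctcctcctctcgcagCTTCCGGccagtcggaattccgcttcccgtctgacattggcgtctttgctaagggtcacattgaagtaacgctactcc
Members with an NRF1 match had a median log2 difference, without minus with asparagine, of 0.29 over 16 tested genes, and those with windows lacking it 0.18 over 48. For ETS the medians were 0.25 over 16 genes and 0.19 over 48, and for YY1 0.16 over 8 and 0.22 over 56. Whether the matches bear on the differences was not tested.

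None of the 75 tested members passed an adjusted p of 0.05 in edgeR's quasi-likelihood test (0 higher and 0 lower without asparagine), where 0.771% of all 12843 tested genes were called higher and 1.07% lower. The limma-voom test also called 0 members (all genes 0.763% higher, 1.07% lower), and DESeq2 called 1, Uqcrq (all genes 1.5% higher, 2.11% lower). With the letter as a replicate block edgeR called the same 1 (all genes 2.68% higher, 3.68% lower), and with no low-count filter it called 11 of 83 higher and 2 lower (all genes 3.1% higher, 3.63% lower). At an unadjusted p of 0.05 in edgeR, 12 members (16%) were higher and 0 were lower, against 8.65% and 9.48% of all genes. The differences leaned to higher values without asparagine: 59 of 75 log2 differences (78.7%) lay above 0, against 51.4% of all genes. Their median was 0.20, and 0.11 to 0.27 with each library left out, where the median over all genes was 0.01. In 35 members (46.7%) both libraries without asparagine lay above both with it, as in 26.1% of all genes, and in 1 (1.33%), Atp5c1, both lay below, as in 26.4% of all genes. By complex the median was 0.21 in I, -0.10 in II, 0.23 in III, 0.27 in IV and 0.16 in V. Without library A of the cells lacking asparagine these medians were 0.12 in I, -0.01 in II, 0.09 in III, 0.11 in IV and 0.10 in V, and without library B they were 0.29, -0.26, 0.32, 0.34 and 0.25.

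**Figure D2:**
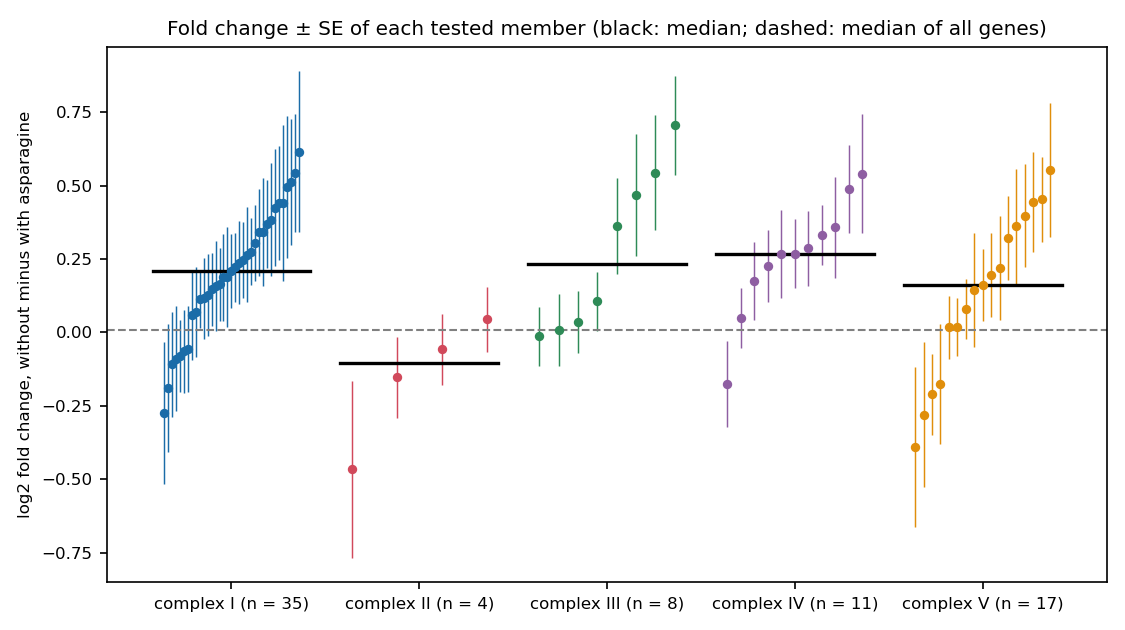
Log2 difference (without minus with asparagine) of each tested member with its SE, by complex I to V, with the median of each complex and a dashed line at the median of all genes. Most points lie above 0, and each complex has at least 1 point below it. Points below 0 are the majority in complex II (3 of 4) and among the F1 subunits of complex V (4 of 5). No point passed the adjusted threshold.

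Complex I was represented by 35 tested members, 28 above 0 and 7 below, reaching 0.62. The 7 core subunits, among them those that hold the flavin and the iron-sulphur clusters, had a median of 0.16 and the 27 accessory subunits one of 0.21. Ndufb2, an accessory subunit of the membrane arm, had 8.77 and 5.55 CPM without asparagine, against 3.87 and 5.37 CPM with it. Library A was far above the rest and library B just above both libraries with asparagine, and the log2 difference was 0.62 ± 0.27 (edgeR adjusted p = 0.296). Ndufa9, an accessory subunit at the junction of the arms, had 29.2 and 48.3 CPM without asparagine, against 43.0 and 45.5 CPM with it. Here library A lay far below the other 3, and the groups overlapped. Ndufb9, the most abundant per kilobase, had 327 and 436 CPM without asparagine, against 343 and 385 CPM with it, so its 2 libraries without asparagine lay on either side of those with it (0.07 ± 0.15 on the log2 scale). Ndufa4 had both libraries without asparagine above both with it, by 0.27 ± 0.11 on the log2 scale (edgeR adjusted p = 0.271).

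Complex II, the succinate dehydrogenase that also serves the tricarboxylic acid cycle, differed from the other complexes in the sign of its median, with 3 of 4 members below 0; the difference between complexes was not tested, and without library A that median was -0.01. Its transcripts had a median length of 2065.5 bases, the longest of the complexes. Sdhd had 73.7 and 156 CPM without asparagine, against 163 and 156 CPM with it. Only library A was low, and the log2 difference of -0.47 ± 0.30 did not pass (edgeR adjusted p = 0.443). The flavoprotein subunit Sdha had 168 and 216 CPM without asparagine, against 210 and 216 CPM with it, again with library A alone below. The other anchor, Sdhc, had 88.4 and 80 CPM without asparagine and 77.8 and 85.3 CPM with it, with overlapping groups and a log2 difference of 0.05 ± 0.11. The iron-sulphur subunit Sdhb had 37.4 and 43.2 CPM without asparagine and 40.2 and 43.8 CPM with it.

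In complex III 7 of 8 members lay above 0. Uqcrq, a small subunit that binds beside cytochrome b, had 34.4 and 25.9 CPM without asparagine, against 17.0 and 19.9 CPM with it. Both libraries without asparagine were above both with it, by 0.71 ± 0.17 on the log2 scale or 1.63-fold, the largest difference among the 75 members, with an unadjusted p of 0.0043 and an adjusted p of 0.108 in edgeR. Uqcr11, another small subunit, had 23.5 and 16 CPM without asparagine, against 12.8 and 14.2 CPM with it, a log2 difference of 0.54. The hinge protein Uqcrh, which contacts cytochrome c1, had 97.2 and 90.3 CPM without asparagine and 87.8 and 95.2 CPM with it, and its groups overlapped (0.03 ± 0.11). The median was 0.47 over the 5 small subunits and 0.01 over Uqcrc1, Uqcrc2 and the Rieske protein Uqcrfs1. Without library A it was 0.20 and -0.05. The groups also differed in transcript length, with medians of 535 and 1653 bases, and the contrast between them was not tested. Uqcrc1 had 60.1 and 57.5 CPM without asparagine, against 58.5 and 60.1 CPM with it, a log2 difference of -0.01 ± 0.10 that was 0.04 under upper quartile scaling.

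Complex IV had 10 of its 11 tested members above 0. Cox4i1, which binds ATP and ADP, had 178 and 175 CPM without asparagine, against 133.5 and 147 CPM with it. That difference, 0.33 ± 0.10 on the log2 scale, was present in both libraries to a like extent and missed the threshold (edgeR adjusted p = 0.172). It was 0.16 with the length trend described later removed. Cox4i1 overlaps exons of Emc8 on the other strand, and it is 1 of 26 members of the 84 that overlap a gene there. The use of strand in counting is not given in the sources used here. On the same strand 5 members overlap another annotated gene, among them Ndufb2 and Ndufb9, which can affect their counts. Cox6b1, which faces the intermembrane space, had 39.9 and 33.3 CPM without asparagine, against 23.4 and 28.7 CPM with it (0.49 ± 0.15, edgeR adjusted p = 0.171). Cox6a1 had 150 and 154 CPM without asparagine, against 115 and 137 CPM with it (0.27 ± 0.12, edgeR adjusted p = 0.293). The groups did not overlap for either gene. Cox5b, the zinc-binding subunit, had the largest log2 difference of the complex, 0.54 ± 0.20 (edgeR adjusted p = 0.233), from 37.6 and 24.7 CPM without asparagine and 19.9 and 22.8 CPM with it, with library A well above library B. Cox6c had 120 and 85.5 CPM without asparagine and 74.8 and 85.5 CPM with it, so library A alone stood out. Cox7a2 had 50.3 and 51.2 CPM without asparagine and 48.2 and 49.9 CPM with it, and Cox8a had 128 and 105 CPM without and 96.0 and 110 CPM with it. Cox7a2l, a factor of supercomplex assembly that the symbol rule also takes, was the one below 0, with 84 and 111 CPM without asparagine, against 106 and 114 CPM with it (-0.18).

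**Figure D3:**
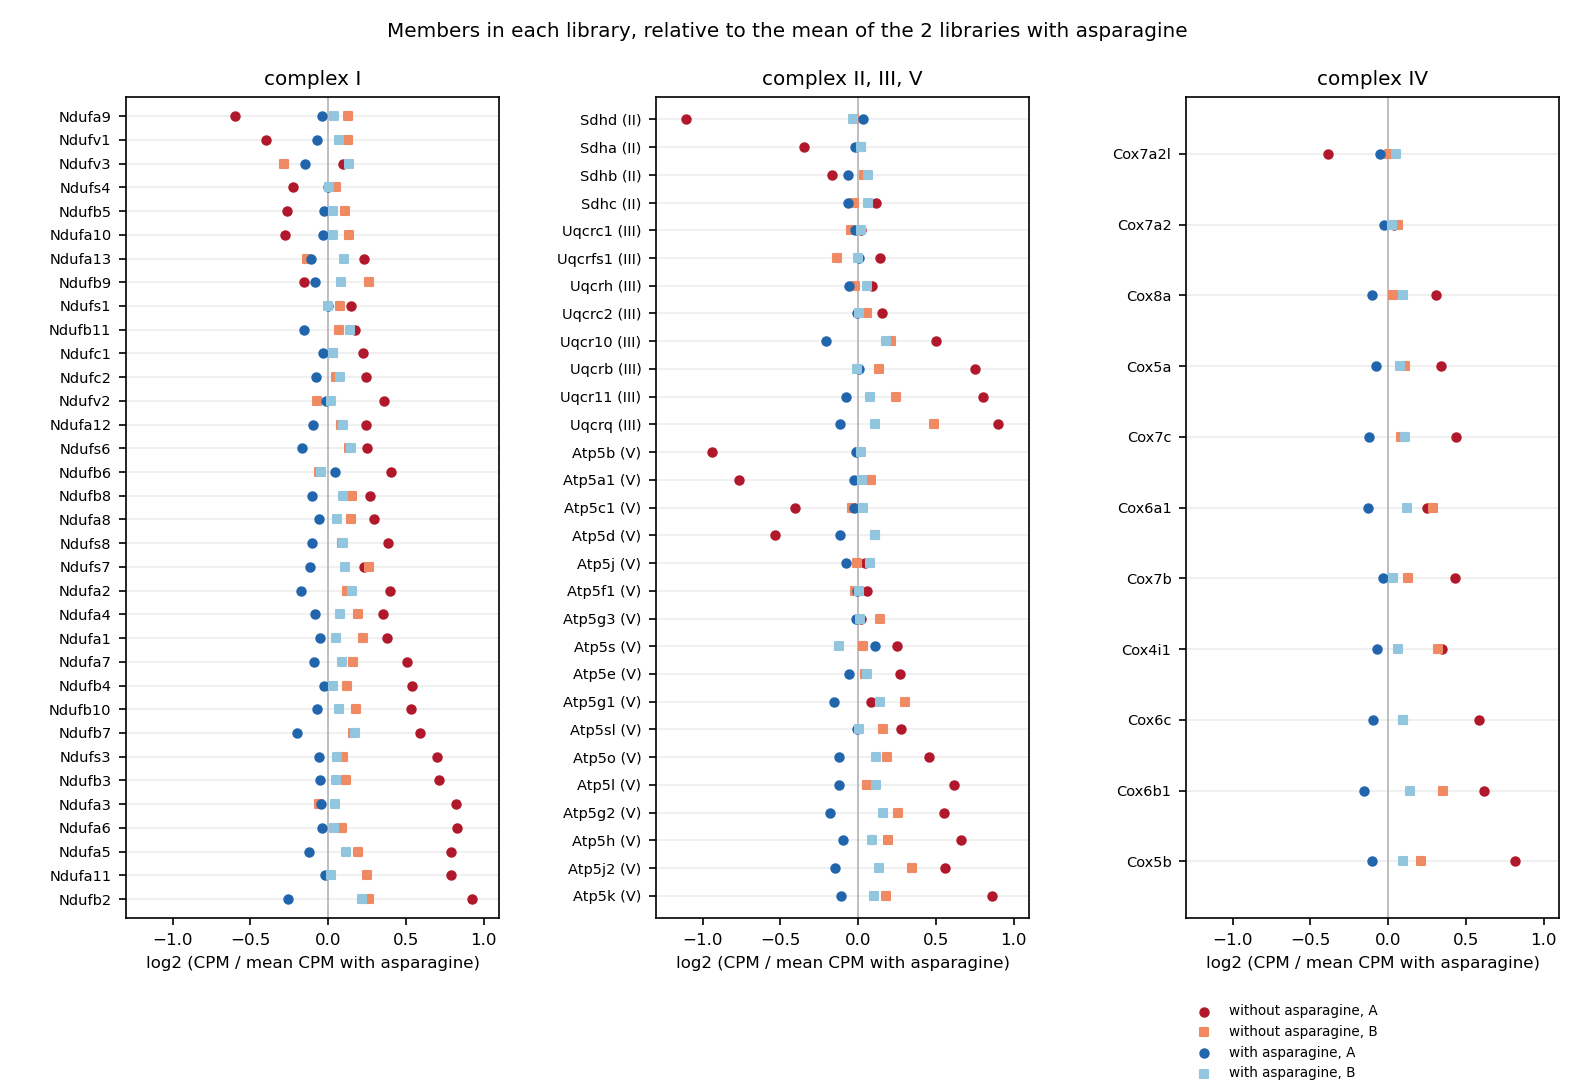
Log2 of each library's CPM over the mean CPM with asparagine, for the tested members but 1, with library A and library B without asparagine and both libraries with it. Library A without asparagine spreads widest in both directions, with Sdhd and Atp5b far below 0, while library B without asparagine stays nearer the libraries with it.

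In complex V the median log2 difference was -0.21 over the 5 subunits of the F1 head, which makes ATP, and positive over each group of the other subunits; the contrast between groups was not tested. The F1 median was 0.04 without library A and -0.54 without library B, so its sign rested on library A. Atp5b had 1243 and 2393 CPM without asparagine, against 2358 and 2407 CPM with it. Library A held 0.522 times the mean with asparagine, library B 1.00 times, and the log2 difference of -0.39 ± 0.27 did not pass (edgeR adjusted p = 0.476). Atp5a1, the alpha subunit, had 359 and 645 CPM without asparagine, against 599 and 621 CPM with it. Atp5d, the delta subunit of the central stalk, had 67.9 and 106 CPM without asparagine, against 90.6 and 106 CPM with it. In both, library A alone was below the libraries with asparagine. Atp5c1, the gamma subunit that forms the rotor shaft, had 233 and 299 CPM without asparagine, against 301 and 314 CPM with it, with library B just under library A with asparagine (-0.21). Of the F1 subunits the short epsilon subunit Atp5e was above 0, with 45.7 and 39.1 CPM without asparagine and 36.4 and 39.3 CPM with it (0.16, and -0.09 with the length trend described later removed). The 5 F1 genes summed to 1948 and 3482 CPM without asparagine and 3385 and 3487 CPM with it, so that library A held the low value and library B lay between the libraries with asparagine. The membrane subunits, which hold the dimers of the enzyme together, had a median of 0.45, and 0.17 without library A. Their transcripts had a median of 544 bases, against 1450.5 bases for the F1 genes. Among the membrane subunits Atp5k had 22.0 and 13.7 CPM without asparagine, against 11.2 and 13.0 CPM with it (0.55 ± 0.23, edgeR adjusted p = 0.269). Atp5j2 had 37.1 and 32.0 CPM without asparagine, against 22.7 and 27.7 CPM with it (0.45, edgeR adjusted p = 0.178). Library A was the higher for each, and neither gene's groups overlapped.

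The c subunit of the rotor ring is encoded by 3 genes whose products differ in their targeting peptides. Atp5g3 gave most of the reads, with 205 and 222 CPM without asparagine and 200 and 204 CPM with it. Atp5g1 had 34.4 and 40.1 CPM without asparagine and 29.2 and 35.8 CPM with it, and Atp5g2 had 17.6 and 14.3 CPM without and 10.6 and 13.4 CPM with it. The log2 differences were 0.08, 0.20 and 0.40 for Atp5g3, Atp5g1 and Atp5g2, and the groups overlapped for Atp5g1. Transcripts of Atp5g1 run from 596 to 4715 bases, so its level per kilobase is uncertain. The peripheral stalk genes had a median of 0.17. Atp5s and Atp5sl are taken by the symbol rule although Atp5s is a regulatory factor and Atp5sl acts in complex I assembly, and they had 5.78 and 4.96 CPM, and 5.72 and 5.28 CPM, without asparagine, against 5.25 and 4.47 CPM, and 4.71 and 4.74 CPM, with it. Near-identical genes, at 95% identity over 50% of the transcript, existed for 14 of the 84 members, including Atp5l, Atp5h, Atp5k, Atp5g1, Atp5g2, Atp5c1 and Uqcrb, so their counts may be shared with copies.

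The calls depended on which library without asparagine was used. Against both libraries with asparagine, library A lay above both in 56 members (74.7%, all genes 44.7%) and below both in 15 (20%, all genes 43.1%). Library B lay above both in 45 (60%, all genes 40.1%) and below both in 9 (12%, all genes 39.6%). When library A was left out, edgeR called 7 members higher and 0 lower, where it called 6.94% of all genes higher and 8.7% lower. Those 7 were Cox4i1 (log2 difference 0.32, adjusted p = 0.000373), Ndufb9 (0.26, 0.00103), Uqcrq (0.48, 0.00113), Cox6a1 (0.28, 0.0025), Cox6b1 (0.35, 0.0146), Atp5j2 (0.34, 0.0204) and Atp5g1 (0.29, 0.0321). When library B was left out, edgeR called 38 members higher (50.7%, all genes 18.9%) and 13 lower (17.3%, all genes 21.6%). Among the lower ones were Sdhd (-1.11), Atp5b (-0.94), Atp5a1 (-0.77), Ndufa9 (-0.61) and Atp5d (-0.54). These fits leave a lone library without asparagine, assumed to vary like the pair with it, and both use the same libraries with asparagine. Without library A the same 5 genes had log2 differences of -0.03 for Sdhd, 0.00 for Atp5b, 0.08 for Atp5a1, 0.12 for Ndufa9 and 0.10 for Atp5d, so their low values came from library A. Leaving out library A or library B with asparagine gave 0 calls in either direction, where all genes gave 0.212% higher and 0.227% lower without A, and 0.182% in each direction without B.

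The members are short transcripts, with a median of 838 bases against 2805.5 bases for all tested genes, and their differences tended to follow length. Across the 75 members, log2 length and log2 difference had a Spearman's rho of -0.60, against -0.22 across 12728 genes, given as a description since all genes come from the same 4 libraries. With library A left out it was -0.29 over the members and -0.13 over all genes, and with library B left out it was -0.60 and -0.22. The 46 members under 1000 bases had a median log2 difference of 0.31 with 45 above 0, where all 1110 genes of that length had a median of 0.20. The 29 members of 1000 bases or longer had a median of -0.01 with 14 above 0, where the 11618 genes of that length had -0.01. Library A held a median of 1.34 times the mean with asparagine over the short members, against 1.25 times over all genes of that length. Over the long members it held 1.04 times, against 0.989 times over all long genes. Library B held 1.1 times over the short members, against 1.06 times over all short genes. Over the long members library B held 1.03 times, against 0.997 times over all long genes. How many of all genes lay above 0 in each length class was not counted. Removing a trend with length from all genes left the members a median of 0.07 (all genes 0.01), with 44 of 75 above 0. Of the members, 0 were then called (all genes 0.864% higher, 1.08% lower). Uqcrq was an exception to the tendency, with 1521 bases and a log2 difference of 0.71, and 0.65 with the trend removed. Atp5d was another, with 931 bases and a log2 difference of -0.18, and -0.29 with the trend removed. The part that transcript length, the ribosomal share or the reads outside features had in these differences was not tested.

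**Figure D4:**
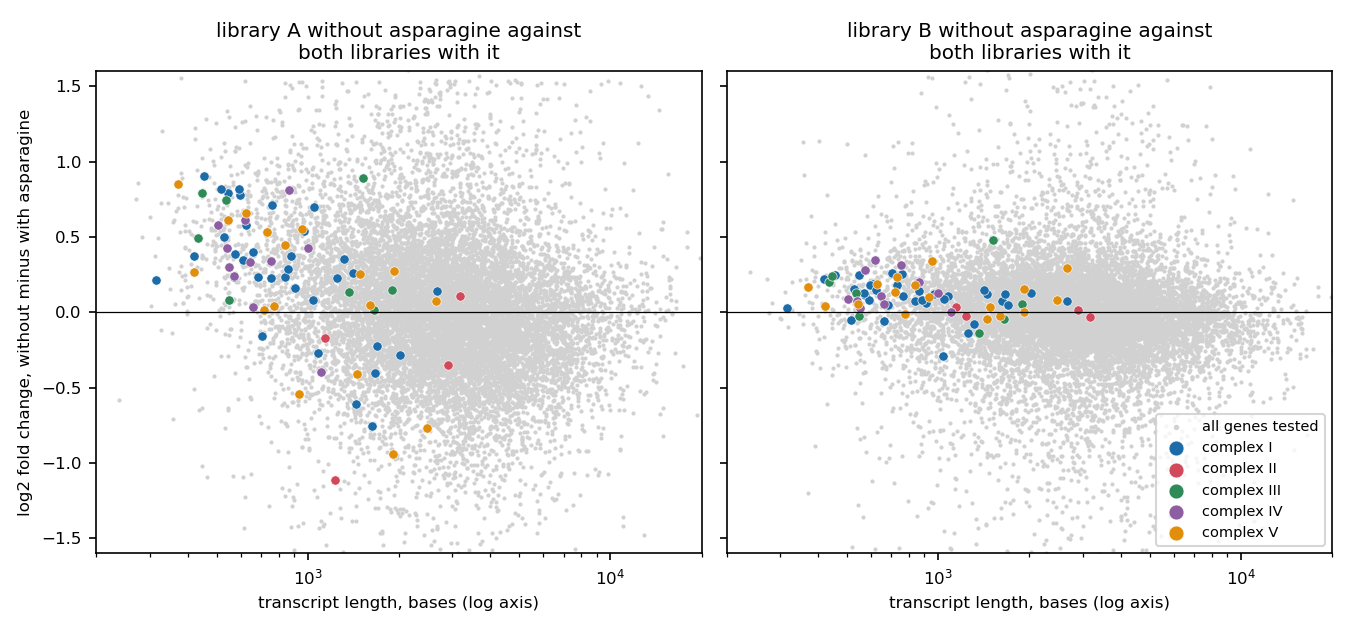
Log2 difference from both libraries with asparagine against transcript length in bases (log axis), for library A without asparagine on the left and library B on the right, with members by complex and all genes in grey. The vertical axis is limited to 1.6 on either side of 0. Short members lie mostly above 0 in library A and long ones lie on both sides of it, while in library B the members lie nearer 0 at all lengths.

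Genes that work beside the subunits were taken from lists written from knowledge of the pathway. Of 40 tested assembly factors, which help to build the complexes and among which Ndufab1 is also a complex I subunit, 0 were called by edgeR and 29 lay above 0, with a median log2 difference of 0.10. At an unadjusted p of 0.05, 7 of them (17.5%) were higher and 0 lower, against 8.65% and 9.48% of all genes. The lowest p belonged to Ndufaf4, a complex I assembly factor, with 126 and 132 CPM without asparagine, against 95.7 and 90.6 CPM with it. Both libraries without asparagine were above both with it, by 0.47 ± 0.10 on the log2 scale (edgeR adjusted p = 0.0795). The 11 electron carriers and subunits that the symbol rule does not take had a median of 0.19 and 0 calls. Among them 2010107E04Rik had 70.7 and 61.1 CPM without asparagine, against 40.8 and 47.6 CPM with it (0.57 ± 0.13, edgeR adjusted p = 0.0922). The 18 genes of the tricarboxylic acid cycle had a median of -0.03 and 0 calls, with 7 above 0. Dlat, the acetyltransferase of pyruvate dehydrogenase, was lower in both libraries without asparagine, with 209 and 228 CPM against 262 and 250 CPM with it, without passing the test (-0.23 ± 0.10, edgeR adjusted p = 0.306). The 17 tested regulators of mitochondrial gene expression had a median of 0.07 and 0 calls. Pprc1, a coactivator of the PGC-1 family that acts with NRF1, had 259 and 205 CPM without asparagine, against 160 and 164 CPM with it (0.52 ± 0.13, edgeR adjusted p = 0.123). The lists' counts and medians set nothing apart from other genes by a test.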

How the data were processed

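Total RNA came from a Qiagen RNeasy preparation and was amplified by NuGEN Ovation RNAseq V2, per the labels' protocols. The authors deposited unnormalised read counts per gene, made with Bowtie2 and HTSeq on mm10, per the submitters' processing notes; the sources used here give no versions, annotation or strand use. Bowtie2 alone does not align across introns, so genes with many short exons may be under-counted. HTSeq's 5 summary rows (60.1% to 70% of reads) were left out of totals. Counts were tested with edgeR 4.0.16 (R 4.3.3): filterByExpr (minimum count 10, total 15), TMM, quasi-likelihood F test, Benjamini-Hochberg adjustment over 12843 genes, threshold 0.05, no term for the letter. CPM values are scaled by TMM, and SE is the size of the log2 difference divided by the square root of F. Lengths are medians over transcripts linked to RefSeq in GENCODE M21 (GRCm38). At these depths a 95% Wilson interval of a share is at most 0.0258 points wide, for counting error only. No label names separate cultures, so p-values measure spread between libraries that may be technical. The members and lists were chosen with earlier results of these data known. Every member was counted. Those given in full are the extremes and the most abundant of each complex, the isoform sets, the smallest p of each list and Asns; 1 member that met this rule is counted but not reported here. Others named, among them Atp5a1, Atp5c1, Atp5d, Ndufa9, Sdha, Atp5j2, Uqcr11 and Cox6c, were chosen after their values were seen. Alternatives were DESeq2 1.42.0, limma-voom 3.58.1, other scalings and filters, the letter as a block, a length trend, and each library left out. The edgeR script was tested on simulated counts with the same spread in both groups. The real groups differed in spread, so that test does not show how the fit treats a library such as A without asparagine.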

Additional observations from a re-analysis of the deposited data

How the results depend on the processing

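Members called higher were 1 by the DESeq2 test, 11 with no low-count filter (and 2 lower, Sdhd and Atp5b), and 0 to 38 with each library left out, where those called lower were 0 to 13. Over all genes, where the test gave 99 higher and 138 lower, DESeq2 gave 193 and 271, and no filter gave 615 and 719. Leaving out library A or B without asparagine gave 910 and 1141, or 2502 and 2861, and leaving out A or B with it gave 28 and 30, or 24 and 24. The members' median was 0.070 with the length trend removed and 0.11 to 0.27 with each library left out. The letters do not pair the libraries by any label, and differences A minus B correlated between the groups at 0.13 over all genes and at -0.28 over the members. With the letter as a replicate block, 1 member was called (Uqcrq, 0.70, edgeR adjusted p = 0.0094), and over all genes 344 were higher and 472 lower. For the companion lists, these settings were chosen after seeing the data. Their counts pool both directions. With all libraries, 40 assembly factors, 11 carriers, 18 cycle genes and 17 regulators were tested. Each list's highest count came from leaving out library B without asparagine, where all genes also gave the most calls. The lists' counts were not tested against the share of all genes called, so they set no list apart. Assembly factors called were 1 by DESeq2, 6 with no filter, 2 with the block and 0 to 19 with a library left out. Carriers called were 1 under each of these 3 settings and 0 to 8 with a library left out, and regulators likewise 1 and 0 to 6. Cycle genes called were 0 to 7 with a library left out. Upper quartile scaling reversed Uqcrc1 (0.035). With the length trend removed, 15 of the 59 members above 0 turned below it, among them Ndufb9 (-0.094), Uqcrh (-0.18), Cox7a2 (-0.14), Cox8a (-0.045), Atp5e (-0.090) and Atp5g3 (-0.094). Of those that stayed above 0, Cox4i1 fell to 0.16, Cox6a1 to 0.06 and Ndufa4 to 0.07, while Uqcrq kept 0.65. With a library left out, log2 differences ranged from -0.16 to 0.26 for Ndufb9, -0.031 to 0.11 for Sdhc, -0.047 to 0.014 for Uqcrc1, -0.025 to 0.091 for Uqcrh, -0.39 to 0.0043 for Cox7a2l, -0.94 to 0.0043 for Atp5b, -0.77 to 0.079 for Atp5a1, -0.54 to 0.10 for Atp5d, -0.61 to 0.12 for Ndufa9 and -0.35 to 0.017 for Sdha. The cause was not tested. Tested members had at least 92 reads in a library, and counting error weighs most on the lowest, Ndufb2, Atp5s and Atp5sl; with 2 libraries in a group, no library could be set against others as an outlier.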
